A study of Mus musculus with 8 samples.

Results

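The genes described here are 56 genes of mitosis and the spindle, chosen by symbol from a list of mitotic kinases, cyclins, kinetochore proteins, condensins, kinesins and cytokinesis proteins. All 56 were listed in both deposited tables, which hold 27051 and 27337 genes, and all 56 had a mean normalized count of at least 10 in both. The cells were wild-type 4T1, a mouse triple-negative breast cancer line, kept at 1% O2 and treated after confluence with a single-domain antibody (sdAb) at 0.5 µg/ml. sdAb#07.81 binds NUPR1, a stress-induced nuclear protein, and sdAb-Con is the control sdAb. The groups used were sdAb#07.81 (24 h), sdAb#07.81 (48 h) and sdAb-Con (48 h), with 2 libraries each, while the Con group was not analysed here. One table compares sdAb#07.81 (48 h) with sdAb#07.81 (24 h) and the other compares sdAb#07.81 (48 h) with sdAb-Con (48 h). Values of single libraries are not in the tables, so levels below are group means of normalized counts worked out from each gene's mean over 4 libraries and its fold change, and the spread between libraries enters only through the standard error (SE) of the log2 fold change. No source says whether the 2 libraries of a group came from separate cultures, so the p-values measure only the spread between these libraries. A control sdAb at 24 h was not among the groups, and between 24 h and 48 h the time in culture and the time under sdAb#07.81 cannot be told apart.

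Mitosis is driven by Cdk1 bound to cyclin B, which is switched on by Cdc25 phosphatases and ends when the anaphase-promoting complex (APC/C) marks cyclin B and securin for destruction. Kinetochores tie chromosomes to spindle microtubules, the spindle assembly checkpoint holds the APC/C back until all of them are attached, and kinesins, condensins and the cytokinesis proteins move, compact and finally part the chromosomes and the cell. Most of these genes are transcribed mainly in G2 and M phase, so in bulk RNA their level also follows the share of cells in those phases. Fewer cells of a phase and less RNA per cell cannot be told apart in these bulk libraries.

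The cell line label was checked with markers. All 6 epithelial markers (*Epcam*, *Cdh1*, *Krt7*, *Krt8*, *Krt18*, *Cldn4*) had means of 2724 to 15180. Of the immune markers, *Cd68* had a mean of 684 and the defining markers *Ptprc* and *Cd3e* were at 1.06 and 0.515. None of the 4 endothelial markers reached 10, and 5 of 6 fibroblast markers did, the highest being *Pdgfra* at 607. The summed level of the epithelial markers was 45690 at 24 h, 53383 in sdAb#07.81 (48 h) and 52840 in sdAb-Con (48 h), and that of the fibroblast markers was 1304, 988 and 954, mostly *Pdgfra* (1064, 619 and 595), while *Col1a1* (114, 177 and 170), *Col1a2* (82.0, 131 and 126) and *Dcn* (24.5, 32.9 and 42.2) were listed higher in both 48 h groups, *Lum* had 16.9, 25.7 and 15.8, and *Pdgfrb* had 3.60, 2.03 and 3.87. The immune list, mostly *Cd68*, summed to 255, 565 and 821 in the same order, and the endothelial list to 7.76, 9.44 and 12.4. The part of any of these in the results below was not tested. The mean counts summed to 17867752 and 17900221 per table, and the SE of the 56 genes ran from 0.0818 to 0.179 against sdAb-Con (48 h) and from 0.0814 to 0.231 against 24 h.

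Against sdAb#07.81 (24 h), nearly the whole set was lower in sdAb#07.81 (48 h). Of 56 genes, 54 were lower and 0 were higher at an adjusted p under 0.05 (Wald test with Benjamini-Hochberg adjustment over all tested genes), where 22.1% of all tested genes were lower and 19.8% were higher. All 56 log2 fold changes were negative, with a median of -0.86 against -0.01 for all tested genes. The 2 genes that were not called were *Cdc25c* and *Pttg1*. The decrease was graded. In 18 genes the log2 fold change was -1 or less, in 35 it lay between -1 and -0.5, and in 3 it lay above -0.5. A joint trend with the mean count, GC content and length of transcripts, fitted over all genes at once, was also taken out. With it removed, 54 genes were again lower, where 20.8% of all tested genes were lower.

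Against sdAb-Con (48 h), most of the set was not called and the called genes lay mainly on the higher side. In sdAb#07.81 (48 h), 12 genes were higher, 1 was lower and 43 were not called, where 9.90% of all tested genes were higher and 6.75% were lower. The median log2 fold change was 0.09 against -0.02 for all tested genes, with 38 positive and 18 negative values between -0.45 and 0.90. The largest values belonged to *Cenpf*, *Mki67* and *Cenpe*, and the other 9 higher genes had log2 fold changes of 0.26 to 0.40. With the joint trend removed, 6 genes were higher and 1 was lower, where 2.99% of all tested genes were higher and 2.11% were lower, and the lower gene was *Mad2l1* in place of *Spc24*. The 12 genes higher than in sdAb-Con (48 h) were all lower than at 24 h. Both comparisons share the sdAb#07.81 (48 h) libraries. The counts of the role groups below are to be read against the same shares of all tested genes, 22.1% lower against 24 h and 9.90% higher and 6.75% lower against sdAb-Con (48 h), and against 22.6% higher among genes with transcripts of 4086 to 11130 bases.

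**Figure D1:**
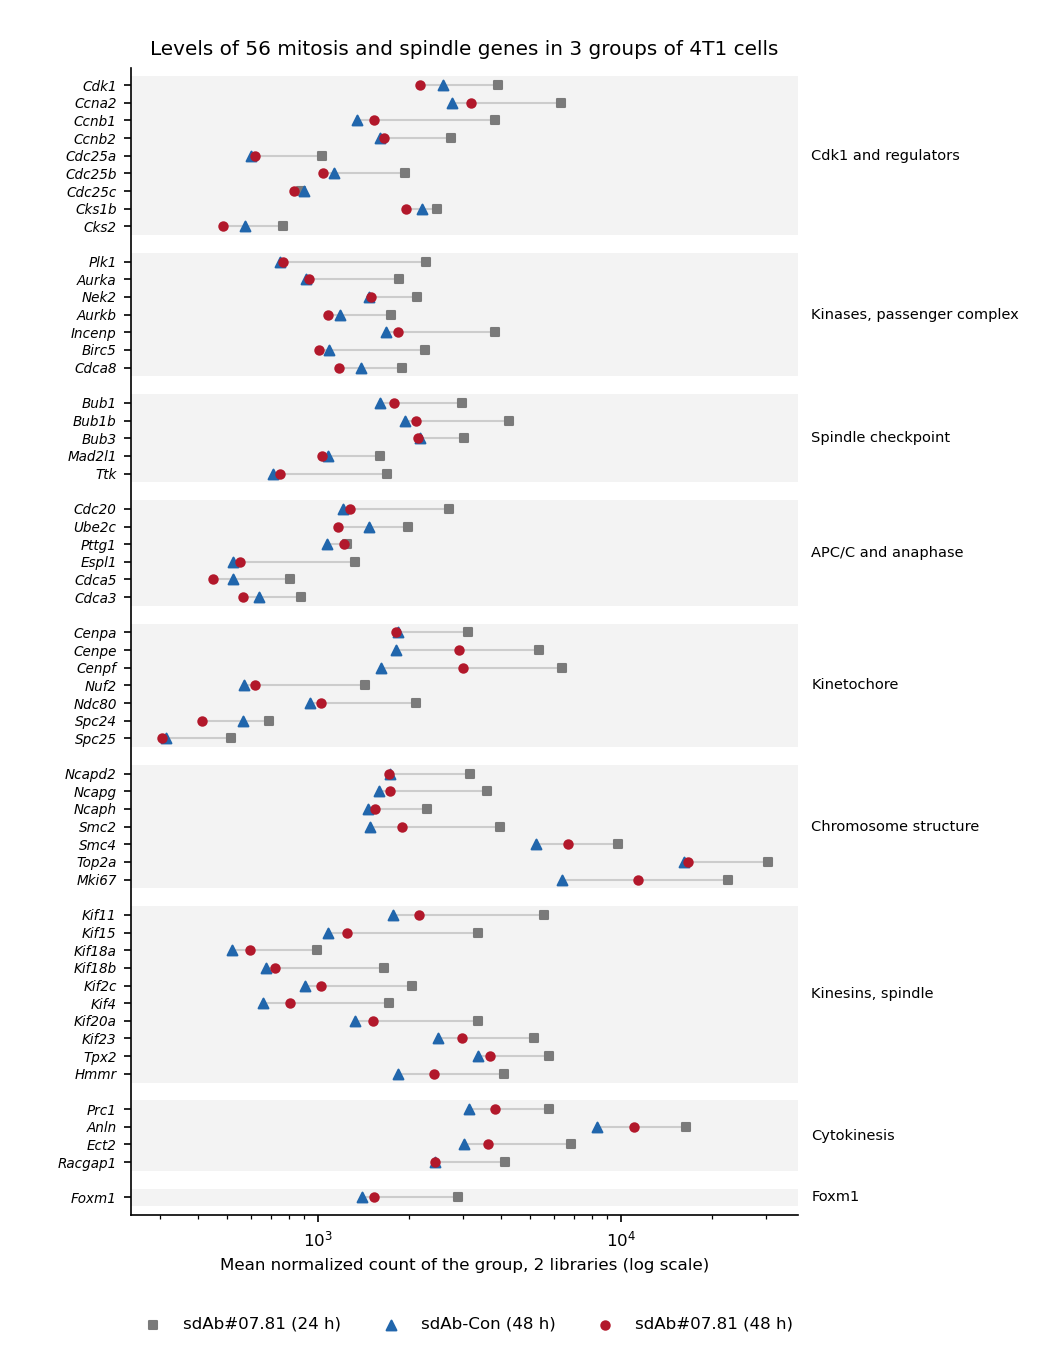
Group means of normalized counts (log scale) of the 56 genes by role, for sdAb#07.81 (24 h), sdAb#07.81 (48 h) and sdAb-Con (48 h), with 2 libraries a group and no values per library. The 24 h mean is the highest of the 3 in 55 genes, and the markers of the 48 h groups lie close together except in genes such as *Cenpf*, *Cenpe* and *Mki67*.

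Placed side by side, the 3 group means had the same order in most of the set. The 24 h mean was the highest for 55 of 56 genes, the exception being *Cdc25c*, with 897 in sdAb-Con (48 h) and 880 at 24 h. sdAb#07.81 (48 h) lay between the other groups for 38 genes and was the lowest for 18, but 43 of the 56 differences between the 48 h groups were not called. These orders were not counted over all genes. The largest differences in level between the 48 h groups, *Mki67* (11410 against 6361) and *Anln* (11011 against 8341), also weigh most on the gap between their sums. Summed over the 56 genes, the level was 227724 at 24 h, 126070 in sdAb#07.81 (48 h) and 109660 in sdAb-Con (48 h). Thus the level in sdAb-Con (48 h) was also below that at 24 h for 55 genes. These groups were not compared in one table, so this difference has no test. Per kb of the longest annotated transcript, the median level of the set was 834, 455 and 436 normalized counts in the same order. *Top2a* had the highest level per kb in all 3 groups (5841, 3188 and 3083), and the lowest was that of *Kif18a* at 24 h (152) and *Espl1* in the 48 h groups (82.8 and 78.4).

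**Figure D2:**
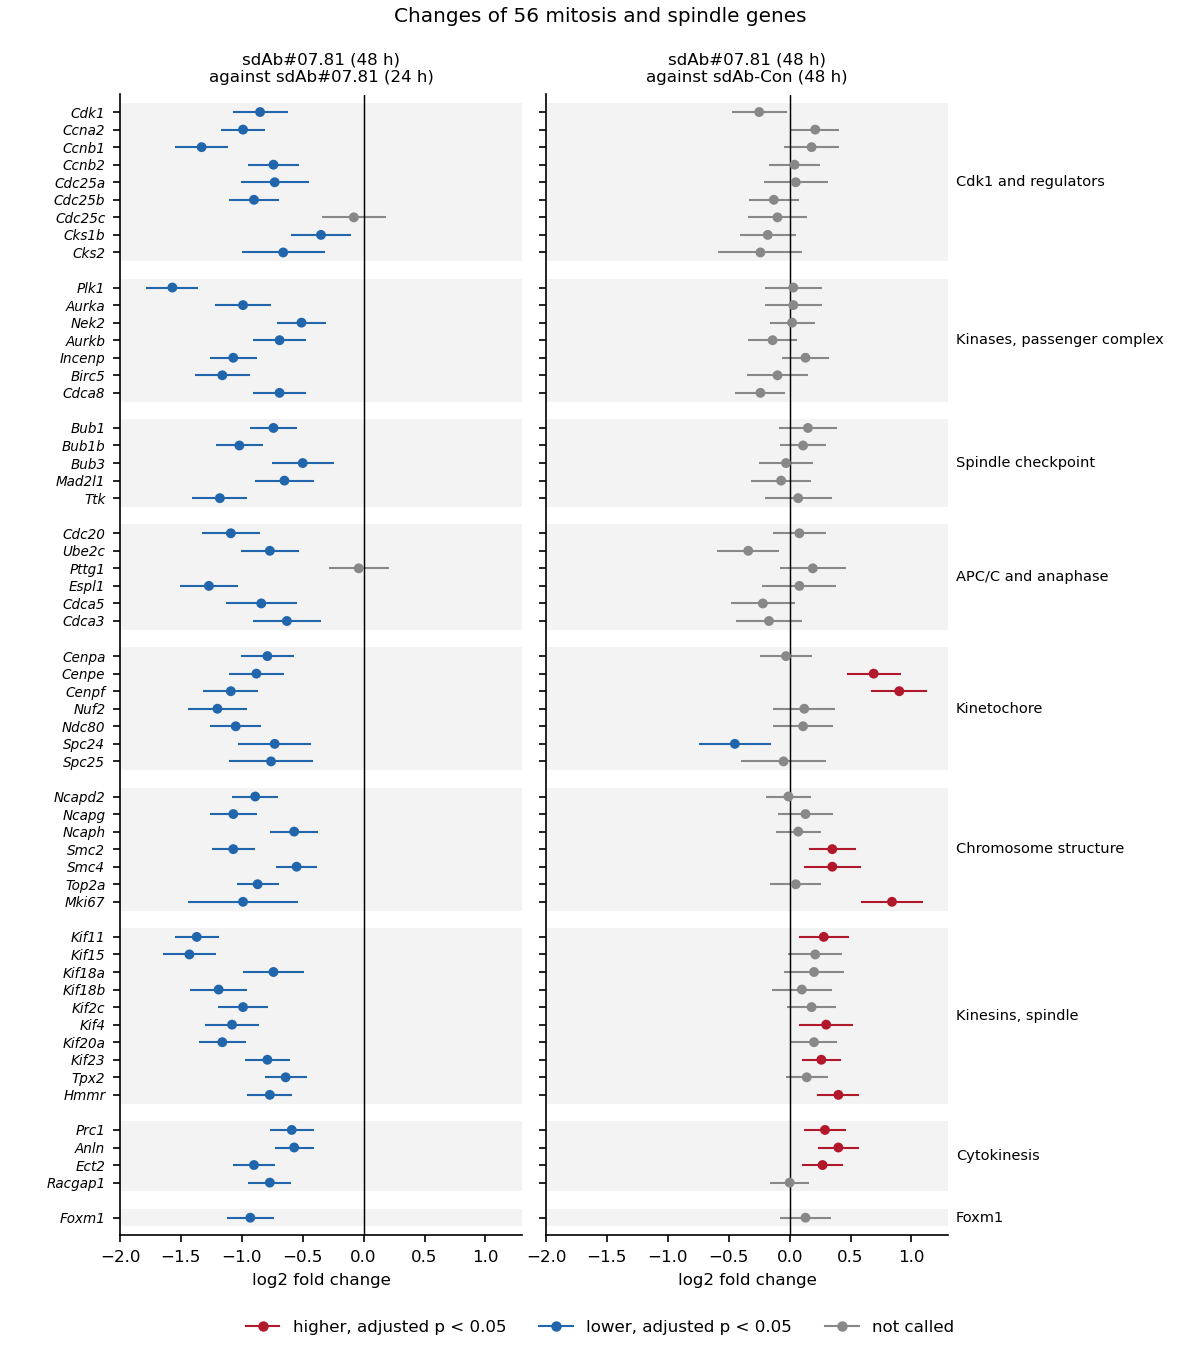
Log2 fold changes of sdAb#07.81 (48 h) against sdAb#07.81 (24 h) and against sdAb-Con (48 h) for the 56 genes by role; points are the deposited values, bars are 95% intervals from their SE, and colour gives the call at an adjusted p under 0.05. In the first comparison 54 genes are lower, and in the second 12 are higher and 1 is lower.

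Of the 9 genes of the Cdk1 switch, 8 were lower than at 24 h and none was called against sdAb-Con (48 h). *Ccnb1*, cyclin B1, had the largest decrease, from 3834 at 24 h to 1527 (log2 fold change -1.33, SE 0.112, adjusted p = 1.4e-30), with 1348 in sdAb-Con (48 h). *Ccna2*, cyclin A2, went from 6328 to 3195 (-0.99, SE 0.0933), with 2766 in sdAb-Con (48 h). *Cdk1*, the kinase itself, had 3922 at 24 h, 2174 in sdAb#07.81 (48 h) and 2580 in sdAb-Con (48 h), a log2 fold change of -0.85 (SE 0.115, adjusted p = 2.9e-12) from 24 h. It also had, against sdAb-Con (48 h), the lowest value of this group, -0.25 (SE 0.116), which did not pass the test (adjusted p = 0.134). The cyclin partners and the kinase thus shared the decrease from 24 h, and the cyclins lay slightly above and *Cdk1* slightly below the control at 48 h without a call. *Ccna2* had 0.21 (adjusted p = 0.146) and *Ccnb1* 0.18 against sdAb-Con (48 h), and *Ccnb2*, cyclin B2, had the smallest value there, 0.04 (2743 at 24 h, 1644 and 1600 at 48 h).

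The 3 Cdc25 phosphatases, which remove the inhibitory phosphates from Cdk1, did not move alike. *Cdc25a* (1026 to 618, log2 fold change -0.73) and *Cdc25b* (1938 to 1037, -0.90) were lower than at 24 h. *Cdc25c* stood at 880 at 24 h, 835 in sdAb#07.81 (48 h) and 897 in sdAb-Con (48 h), with a log2 fold change of -0.08 from 24 h (SE 0.134, adjusted p = 0.689). Its 95% interval for the fold to 24 h, 0.791 to 1.14, does not overlap the interval of *Cdc25b*, 0.464 to 0.617. The Cks proteins, small subunits that bind Cdk1, were lower as well. *Cks1b* went from 2476 to 1948 (-0.35, adjusted p = 0.0151) and *Cks2* from 767 to 485 (-0.66). They had -0.57 and -0.95 with the joint trend removed. *Cks2* had -0.24 (adjusted p = 0.388) against sdAb-Con (48 h), where its mean was 574.

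All 7 mitotic kinases and chromosomal passenger genes were lower than at 24 h, and none was called against sdAb-Con (48 h). *Plk1*, polo-like kinase 1, which acts at centrosomes, kinetochores and the midbody, had the largest decrease of the whole set (ENSMUSG00000030867, chromosome 7, 121758662 to 121769096 on the plus strand as listed in the tables). Its mean was 2271 at 24 h, 763 in sdAb#07.81 (48 h) and 746 in sdAb-Con (48 h). The log2 fold change was -1.57 from 24 h (SE 0.109, adjusted p = 8.6e-45) and 0.03 against sdAb-Con (48 h) (SE 0.120, adjusted p = 0.903). *Plk1* was therefore 66.4% below its 24 h mean, while its fold to the control at 48 h had a 95% interval of 0.868 to 1.20.

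The chromosomal passenger complex consists of the kinase Aurkb with Incenp, Birc5 and Cdca8, and corrects faulty attachments. *Birc5* (survivin) went from 2249 at 24 h to 1010 (-1.16, SE 0.115) and *Incenp* from 3848 to 1834 (-1.07, SE 0.0987). *Aurkb* (1742 to 1077) and *Cdca8* (1896 to 1175) both had a log2 fold change of -0.69. In the comparison with sdAb-Con (48 h), the 4 subunits had -0.10, 0.13, -0.14 and -0.24 in the same order, with *Cdca8* the lowest (adjusted p = 0.105). *Aurka*, the centrosomal Aurora kinase, had 1850, 931 and 909 at 24 h, in sdAb#07.81 (48 h) and in sdAb-Con (48 h), a log2 fold change of -0.99 from 24 h. *Nek2*, which separates centrosomes, had the smallest decrease of the kinases (2125 to 1496, -0.51, adjusted p = 4.2e-06) and the smallest value against sdAb-Con (48 h), 0.02.

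The 5 spindle checkpoint genes were all lower than at 24 h and none was called against sdAb-Con (48 h). *Ttk* (Mps1), the kinase that starts the checkpoint signal, went from 1690 to 746 (log2 fold change -1.18, SE 0.115, adjusted p = 5.4e-23). *Bub1b* (BubR1), part of the inhibitor that blocks Cdc20, went from 4260 to 2098 (-1.02, SE 0.0983). *Bub1*, a kinetochore kinase, went from 2981 to 1780 (-0.74) and *Mad2l1* (Mad2), which binds Cdc20, from 1606 to 1026 (-0.65). *Bub3*, the adaptor that holds Bub1 and BubR1 at kinetochores, had the smallest decrease, from 3019 to 2129 (-0.50, SE 0.130). In sdAb-Con (48 h) the means of *Ttk*, *Bub1b*, *Bub1*, *Mad2l1* and *Bub3* were 711, 1938, 1605, 1080 and 2176. The log2 fold changes against that group reached from -0.07 (*Mad2l1*) to 0.15 (*Bub1*), with 0.11 for *Bub1b* and -0.03 for *Bub3*. *Mad2l1* was lower than in sdAb-Con (48 h) only with the joint trend removed (-0.42, adjusted p = 0.0242, against 0.758 before). The fit took 7557 bases for it, its longest annotated transcript, and whether the cells express that form was not tested.

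Of the 6 genes around the APC/C and anaphase, 5 were lower than at 24 h and none was called against sdAb-Con (48 h). *Espl1*, separase, the protease that cuts cohesin, went from 1326 to 551 (log2 fold change -1.27, SE 0.123, adjusted p = 3.0e-23), with 522 in sdAb-Con (48 h). *Cdc20*, the activator that the checkpoint holds back, went from 2710 to 1274 (-1.09, SE 0.122), with 1208 in sdAb-Con (48 h). *Pttg1*, securin, which keeps separase inactive, stood at 1248 at 24 h, 1217 in sdAb#07.81 (48 h) and 1070 in sdAb-Con (48 h). Its log2 fold change from 24 h was -0.04 (SE 0.126, adjusted p = 0.847), the smallest of the set, and the 95% interval of its fold, 0.821 to 1.16, lay above that of *Espl1*, 0.352 to 0.491. The difference between securin and separase, an inhibitor and its target, was itself not tested. *Ube2c*, the ubiquitin-conjugating enzyme of the APC/C, went from 1985 to 1161 (-0.77), and at -0.34 (SE 0.130, adjusted p = 0.0551) it was the closest of this group to a call against sdAb-Con (48 h), where its mean was 1467. *Cdca5* (sororin), which protects cohesin, and *Cdca3*, linked to the destruction of Wee1, had -0.84 and -0.63 from 24 h, and -0.22 and -0.17 against sdAb-Con (48 h). *Cdc20* had 0.08 and *Espl1* 0.08 against sdAb-Con (48 h), the smallest values there.

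All 7 kinetochore genes were lower than at 24 h, and against sdAb-Con (48 h) 2 were higher and 1 was lower. *Cenpf*, a large protein of the outer kinetochore and nuclear envelope, had the largest change against sdAb-Con (48 h) in the set (ENSMUSG00000026605, chromosome 1, 189372803 to 189420283 on the minus strand as listed). Its mean was 6402 at 24 h, 3010 in sdAb#07.81 (48 h) and 1608 in sdAb-Con (48 h). The log2 fold change was 0.90 against sdAb-Con (48 h) (SE 0.117, adjusted p = 4.3e-12), which is 87.2% higher, and -1.09 against 24 h (SE 0.115, adjusted p = 1.1e-19). *Cenpe*, a kinesin that carries chromosomes along spindle microtubules, followed the same order with 5359, 2910 and 1806. Its log2 fold changes were 0.69 (adjusted p = 1.3e-07) against sdAb-Con (48 h) and -0.88 against 24 h. *Cenpa*, the histone variant of centromeres, had 3123, 1808 and 1841, and its value against sdAb-Con (48 h) was -0.03. With the joint trend removed, *Cenpf* had 0.46 (adjusted p = 0.00472) and *Cenpe* 0.36 (adjusted p = 0.0313) against sdAb-Con (48 h).

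The 4 subunits of the Ndc80 complex, which grips the microtubule end, were all lower than at 24 h. *Nuf2* (1426 to 620, -1.20, SE 0.122) and *Ndc80* (2108 to 1019, -1.05, SE 0.108) had larger decreases than *Spc25* (516 to 304, -0.76, SE 0.176) and *Spc24* (687 to 415, -0.73, SE 0.152), the smallest of the kinetochore genes, and this difference between subunits was not tested. *Spc24* was also the only one of the 56 genes that was lower than in sdAb-Con (48 h), with 415 against 566 (log2 fold change -0.45, SE 0.152, adjusted p = 0.0248). The other subunits had 0.12 (*Nuf2*), 0.11 (*Ndc80*) and -0.05 (*Spc25*). *Spc24* had -0.21 (adjusted p = 0.536) with the joint trend removed.

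The 7 genes of chromosome structure were all lower than at 24 h, and 3 of them were higher than in sdAb-Con (48 h). The median transcript of the 7 genes was 4629 bases. *Mki67*, the proliferation marker Ki-67, which coats mitotic chromosomes, had 22583 at 24 h, 11410 in sdAb#07.81 (48 h) and 6361 in sdAb-Con (48 h) (ENSMUSG00000031004, chromosome 7, 135291513 to 135318090 on the minus strand as listed). Its log2 fold change was 0.84 against sdAb-Con (48 h) (SE 0.131, adjusted p = 1.9e-08) and -0.99 against 24 h (SE 0.231, adjusted p = 1.1e-04). The SE of 0.231 was the largest of the set. *Mki67* was thus 79.4% higher than in the control at 48 h and 49.5% lower than at 24 h.

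Condensin I compacts chromosomes and has 2 ATPase subunits, Smc2 and Smc4, and 3 other subunits. *Smc2* went from 3974 at 24 h to 1893 (-1.07, SE 0.0909, adjusted p = 5.3e-30), with 1487 in sdAb-Con (48 h), a log2 fold change of 0.35 (adjusted p = 0.00488). *Smc4* went from 9799 to 6702 (-0.55, the smallest decrease of this group), with 5243 in sdAb-Con (48 h), also 0.35 (adjusted p = 0.0235). Smc2 and Smc4 also serve condensin II. *Ncapg* went from 3623 to 1727 (-1.07, SE 0.0992), *Ncapd2* from 3173 to 1713 (-0.89) and *Ncaph* from 2283 to 1535 (-0.57). These 3 subunits had 0.13, -0.01 and 0.07 against sdAb-Con (48 h). *Top2a*, the topoisomerase that untangles sister chromatids, had 30496, 16647 and 16098 in the 3 groups, with -0.87 from 24 h (SE 0.0877) and 0.05 against sdAb-Con (48 h) (adjusted p = 0.823). With the joint trend removed, *Mki67* had 0.50 (adjusted p = 0.00546) against sdAb-Con (48 h), and *Smc2* (0.12, adjusted p = 0.621) and *Smc4* (0.22, adjusted p = 0.345) were not called.

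The 10 kinesin and spindle genes were all lower than at 24 h, and against sdAb-Con (48 h) all 10 values were positive, with 4 calls, and their median transcript was 4128 bases. *Kif15* and *Kif11*, both motors that hold the spindle bipolar, had the largest decreases. *Kif15* went from 3365 to 1246 (log2 fold change -1.43, SE 0.110, adjusted p = 1.2e-36), with 1078 in sdAb-Con (48 h). *Kif11* went from 5554 to 2149 (-1.37, SE 0.0913, adjusted p = 1.5e-48), with 1770 in sdAb-Con (48 h), a log2 fold change of 0.28 (SE 0.105, adjusted p = 0.0465). The depolymerizing kinesins *Kif18b* (1649 to 721) and *Kif2c* (2041 to 1025) had -1.19 and -0.99 from 24 h, and *Kif18a*, which dampens chromosome movements, had -0.74 (992 to 595).

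*Hmmr* and *Tpx2* organize spindle microtubules and act with Aurora A. *Hmmr* had the largest value of these genes against sdAb-Con (48 h), 2420 against 1836 (0.40, SE 0.0883, adjusted p = 1.9e-04), and -0.77 from 24 h, where its mean was 4121. *Tpx2* had the smallest decrease of the group, from 5783 to 3706 (-0.64, SE 0.0879), with 3368 in sdAb-Con (48 h) (0.14, adjusted p = 0.305). *Kif4*, a motor of the chromosome arms and midzone, had 1709, 808 and 655, with -1.08 from 24 h and 0.30 against sdAb-Con (48 h) (SE 0.114, adjusted p = 0.0477). The midzone motors *Kif20a* (3382 to 1515, -1.16) and *Kif23* (5144 to 2976, -0.79) had 0.20 (adjusted p = 0.147) and 0.26 (adjusted p = 0.0161) against sdAb-Con (48 h). *Kif18b* had the smallest value there, 0.10. With the joint trend removed, the calls of *Kif11* (0.12, adjusted p = 0.653) and *Kif4* (0.20, adjusted p = 0.377) were lost, those of *Hmmr* and *Kif23* were not, and *Kif18a* had -0.11 (adjusted p = 0.753).

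The 4 cytokinesis genes were all lower than at 24 h, and 3 were higher than in sdAb-Con (48 h). The median transcript of the 4 genes was 4280 bases. *Anln*, anillin, the scaffold of the contractile ring, had 16399 at 24 h, 11011 in sdAb#07.81 (48 h) and 8341 in sdAb-Con (48 h). Its log2 fold changes were 0.40 against sdAb-Con (48 h) (SE 0.0870, adjusted p = 1.3e-04) and -0.57 against 24 h (SE 0.0814). *Prc1*, which bundles midzone microtubules, had 5776, 3839 and 3149, with 0.29 (adjusted p = 0.0127) and -0.59. *Ect2*, the exchange factor that activates RhoA at the cleavage site, had 6814, 3646 and 3024, with 0.27 (adjusted p = 0.0145) and the largest decrease from 24 h, -0.90. *Racgap1*, which forms centralspindlin with Kif23, had 4137, 2431 and 2433. Its value was -0.77 from 24 h and -0.00 against sdAb-Con (48 h), where the fold had a 95% interval of 0.893 to 1.12. After removal of the joint trend, *Anln* remained higher than in sdAb-Con (48 h) (0.33, adjusted p = 0.00687), and *Prc1* (0.23, adjusted p = 0.115) and *Ect2* (0.14, adjusted p = 0.424) were not called.

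*Foxm1*, the transcription factor that drives many G2 and M phase genes together with B-Myb and the MuvB complex, was lower than at 24 h as well. Its mean was 2903 at 24 h, 1524 in sdAb#07.81 (48 h) and 1394 in sdAb-Con (48 h), a log2 fold change of -0.93 from 24 h (SE 0.0986, adjusted p = 1.6e-19). The value against sdAb-Con (48 h) was 0.13 (SE 0.108, adjusted p = 0.476), with a 95% interval of the fold of 0.944 to 1.27.

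**Figure D3:**
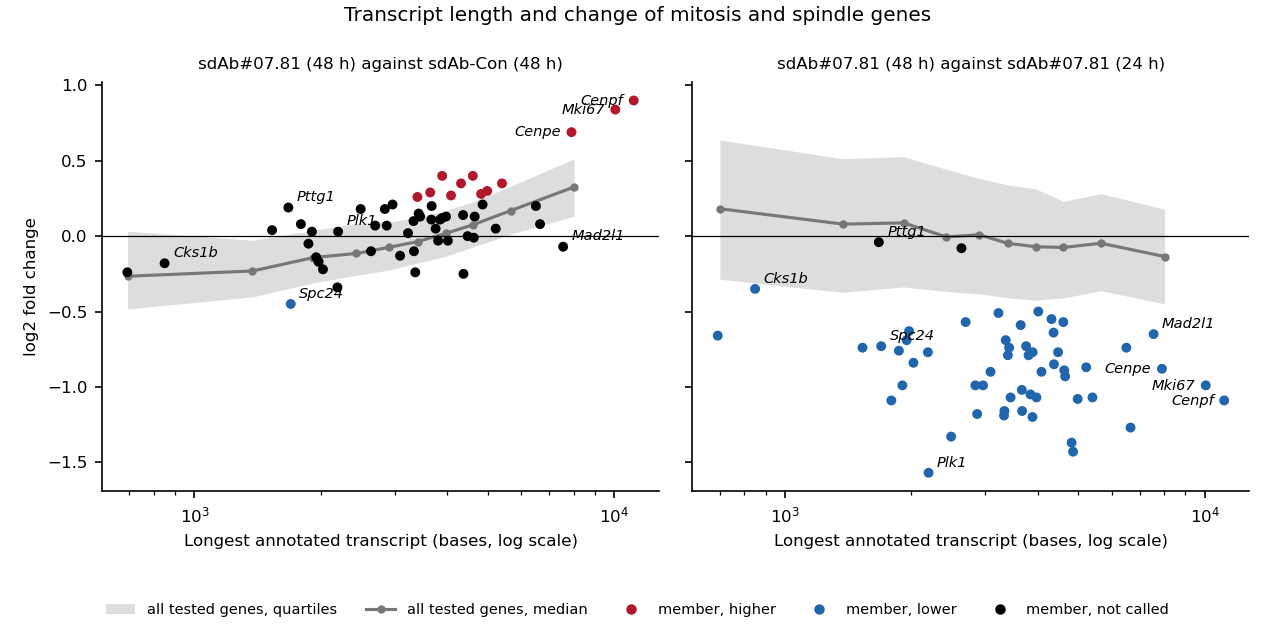
Log2 fold change against the length of the longest annotated transcript (log scale) for the 56 genes, coloured by call, with the median and the range between quartiles of all tested genes in 10 bins of length with equal numbers of genes. Against sdAb-Con (48 h) the values of all genes climb with length and the longest of the 56, *Cenpf*, *Mki67* and *Cenpe*, lie highest, whereas against 24 h nearly all of the 56 lie under the grey band.

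The calls against sdAb-Con (48 h) followed transcript length, in the set as in all genes. Spearman's rho between log2 fold change and the longest transcript was 0.547 over the 56 genes and 0.452 over 13725 tested genes, and for GC content it was -0.459 and -0.305. With the mean count, rho was 0.461 over the 56 genes and 0.0260 over all tested genes, and 0.342 and 0.0224 with the joint trend removed. These are values across genes of the same libraries, and genes are not independent replicates. The 12 higher genes had transcripts of 3398 to 11130 bases (median 4712), the 43 genes not called had a median of 3334, and that of *Spc24* was 1696. Among the 19 longest of the 56 (at least 4086 bases), 9 genes were higher, and 22.6% of all tested genes in the same length range were. Among the 18 shortest, 0 were higher against 2.10%, and among the 19 between them 3 were higher against 4.83%. After removal of the joint trend, rho with length was -0.0485 over the 56 genes. The 6 genes higher after its removal were *Cenpf* (0.46, adjusted p = 0.00472), *Mki67* (0.50, adjusted p = 0.00546), *Cenpe* (0.36, adjusted p = 0.0313), *Anln* (0.33, adjusted p = 0.00687), *Hmmr* (0.30, adjusted p = 0.0190) and *Kif23* (0.26, adjusted p = 0.0382), and the lower gene was *Mad2l1* (-0.42, adjusted p = 0.0242). *Cenpf*, *Mki67* and *Cenpe* have the longest transcripts of the set. *Mad2l1*, at -0.07 before removal of the trend, was fitted with 7557 bases. Against 24 h, rho with length was -0.243 over the 56 genes and -0.125 over 13809 genes. Length, GC content and mean count were not removed one at a time, and the cause of the trend was not tested.

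Because 54 of 56 genes were lower than at 24 h together, their promoters were read for elements known from G2 and M phase genes. The cell cycle homology region (CHR, written TTTGAA or TTCGAA) is bound by the MuvB core of the DREAM and B-Myb complexes, the CCAAT box by NF-Y, and the E2F site (TTCCCGC or TTGGCGC) by E2F factors. All were searched on both strands from 250 bases before to 50 bases after the start. RefSeq promoters (GRCm38.p6) were matched by symbol for 47 of the 56 genes, and *Tpx2*, *Foxm1*, *Smc4*, *Incenp*, *Ccna2*, *Spc24*, *Kif20a*, *Cdc25c* and *Aurkb* were not matched. The 120 bases before the start are shown for *Cdk1*, the kinase of the switch, and for *Cdc20*, the activator that the checkpoint holds back. They are also shown for *Kif11* and *Kif15*, with the largest decreases among the kinesins, for *Top2a*, with the highest level per kb, and for *Pttg1*, which was not called. Capitals mark matches of these elements on either strand.
Cdk1 (chr10:69352913-69353032, minus strand): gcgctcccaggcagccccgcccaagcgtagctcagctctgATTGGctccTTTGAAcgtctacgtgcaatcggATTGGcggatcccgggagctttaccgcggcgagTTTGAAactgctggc
Cdc20 (chr4:118437344-118437463, minus strand): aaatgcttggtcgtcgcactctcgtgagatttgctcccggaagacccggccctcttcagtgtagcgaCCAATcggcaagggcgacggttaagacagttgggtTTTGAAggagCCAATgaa
Kif11 (chr19:37376262-37376381, plus strand): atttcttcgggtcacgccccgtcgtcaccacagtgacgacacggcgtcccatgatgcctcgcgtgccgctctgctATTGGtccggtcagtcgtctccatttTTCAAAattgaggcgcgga
Kif15 (chr9:122950961-122951080, plus strand): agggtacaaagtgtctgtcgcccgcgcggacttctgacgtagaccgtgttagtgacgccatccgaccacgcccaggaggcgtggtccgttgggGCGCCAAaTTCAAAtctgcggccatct
Top2a (chr11:99024190-99024309, minus strand): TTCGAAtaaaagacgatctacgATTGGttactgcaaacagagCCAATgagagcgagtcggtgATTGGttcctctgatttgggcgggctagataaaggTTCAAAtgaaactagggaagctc
Pttg1 (chr11:43425982-43426101, minus strand): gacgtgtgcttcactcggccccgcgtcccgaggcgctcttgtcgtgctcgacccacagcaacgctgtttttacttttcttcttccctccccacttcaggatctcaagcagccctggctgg

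The CHR was found in 36 of 47 promoters of the set (76.6%), in 39.7% of 116 promoters of other mitotic genes and in 21.7% of 27025 promoters of all genes. The CCAAT box was also found in 36 of the 47 (76.6%), against 54.3% and 41.1%. CHR and CCAAT box together were found in 66.0%, against 24.1% and 9.65%, and the E2F site in 23.4%, against 27.6% and 7.79%. Beside the 120 bases shown above, in which *Kif15* has an E2F site next to a CHR and *Pttg1* has no match, the whole windows of 4 genes held none of the elements, namely *Birc5*, *Mad2l1*, *Pttg1* and *Nuf2*. The change of these 4 genes was not alike. *Nuf2* (-1.20) and *Birc5* (-1.16) were among the larger decreases from 24 h, *Mad2l1* had -0.65 and *Pttg1* -0.04. Genes with a CHR had a median log2 fold change of -0.90 from 24 h (36 genes) and those without -0.73 (11 genes), and against sdAb-Con (48 h) the medians were 0.08 and 0.07. For the CCAAT box the medians from 24 h were -0.88 with and -0.84 without it, and for the E2F site -0.89 and -0.83. The 43 genes with any element had -0.87 and the 4 with none -0.91. Whether any element goes with the decrease was not tested. With 1 start per gene, the first listed, there were 49 CHR matches, of which 77.6% lay between 100 bases before and 50 after the start, with a median position of -15, and CCAAT boxes had a median position of -66. *Bub3*, *Prc1* and *Ect2* are listed with 2 starts each, and their promoters counted as holding an element where either did. A match is only a stretch of letters and was not tested for binding.

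**Figure D4:**
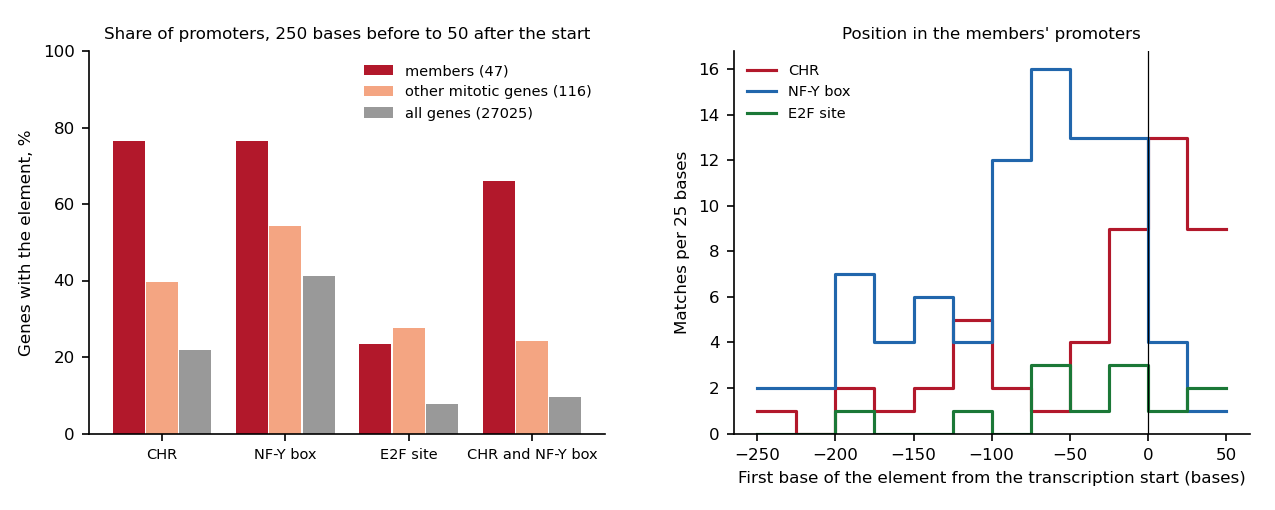
Left, share of RefSeq promoters that hold a CHR, a CCAAT box (labelled NF-Y box), an E2F site, or both CHR and CCAAT box, for 47 genes of the set, 116 other mitotic genes and 27025 genes. Right, positions of the matches in the 47 promoters (1 start per gene) in steps of 25 bases, with CCAAT boxes mostly within 100 bases before the start and the CHR around it.

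The other genes of the same processes were taken from 8 lists with 141 genes, all of them tested. Against 24 h, 97 were lower, 5 were higher and 39 were not called (median log2 fold change -0.53), where 22.1% of all tested genes were lower and 19.8% were higher. The counts per list are to be read against the same shares. Lower were 26 of 33 other kinetochore and centromere genes, with *Cenpi*, of the inner kinetochore, at -1.39 (762 to 291) and *Trip13*, which remodels Mad2, at -1.22. Lower were also 25 of 30 other spindle and midbody genes, with *Gtse1* at -1.08 and *Aspm*, which focuses spindle poles, at -1.06, and 3 of 3 condensin II genes, with *Ncapg2* at -1.25 and *Ncapd3* at -0.62. Of 19 centrosome and centriole genes 13 were lower, led by *Pcnt* (pericentrin) at -1.37 and *Stil* at -1.17, and of 15 cohesin genes 10 were lower, led by the cohesin subunit *Stag1* at -1.26 and shugoshin *Sgo1* at -1.11.

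In the other 3 lists, both directions were called. Of 17 APC/C core genes and their regulators, 7 were lower, with the APC/C inhibitor *Fbxo5* at -1.20 and *Anapc5* at -0.84, and *Cdc16* was higher at 0.36. Of 16 genes of mitotic entry brakes and phosphatase control, 10 were lower, with cyclin F (*Ccnf*) at -1.35 and *Mastl* (Greatwall kinase) at -0.70, and 3 were higher, with *Mnat1* at 0.68 and *Ccnh* at 0.34, which encode 2 subunits of the Cdk-activating kinase. *Cdk7*, for its catalytic subunit, was lower (-0.48, adjusted p = 0.00447), named here after its value was seen, and *Ccnh* was not called with the trend removed (0.27, adjusted p = 0.0760). Of 8 genes of the DREAM and B-Myb complexes, 3 were lower and 1 was higher. The lower genes included *Mybl2*, which encodes B-Myb (1299 to 516, -1.33), and *Lin9* (-0.57), and the higher gene was the pocket protein *Rbl2* (p130, 979 to 1226, 0.32).

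Against sdAb-Con (48 h), 22 of the 141 genes were higher, 6 were lower and 113 were not called (median 0.03), where 9.90% of all tested genes were higher and 6.75% were lower. With the joint trend removed the balance turned, with 5 higher and 7 lower, where 2.99% and 2.11% of all tested genes were. The lists with the most higher genes were cohesin and its regulators, 7 of 15, with *Nipbl*, the cohesin loader, at 0.73 (6034 against 3641) and *Sgo2a* at 0.48, and other spindle and midbody genes, 7 of 30, with *Aspm* at 0.70 and *Kif20b* at 0.66. The median transcript of the cohesin list was 4939 bases, and its median log2 fold change was 0.31, or 0.08 with the joint trend removed. All 7 calls of this list were lost with the trend removed, with *Nipbl* at 0.34 (adjusted p = 0.128) and *Sgo2a* at 0.29 (adjusted p = 0.258), while 5 of the spindle and midbody genes were higher and 1 was lower, *Aspm* being at 0.31 (adjusted p = 0.0178) and *Kif20b* at 0.41 (adjusted p = 0.0495). The remaining higher genes were few per list. They included *Knl1*, the kinetochore scaffold, at 0.64, *Cep192* at 0.58 and *Cenpj* at 0.48 at centrosomes, *Lin54* at 0.30 and *Rbl1* at 0.27 in the DREAM list, *Cdc27* at 0.37 and *Mastl* at 0.33. With the trend removed, the 6 of these that could be fitted were not called, the values being 0.26 for *Knl1* (adjusted p = 0.307), 0.27 for *Cep192* (adjusted p = 0.196), 0.35 for *Cenpj* (adjusted p = 0.120), 0.10 for *Rbl1*, 0.14 for *Cdc27* and 0.10 for *Mastl*, and *Lin54* had no transcript length to be fitted. The lower genes were *Anapc16* (-0.51), *Anapc5* (-0.40) and *Anapc11* (-0.40) of the APC/C, the phosphatase subunits *Ppp1ca* (-0.43) and *Ppp2r1a* (-0.28), and *Trip13* (-0.39). Of these 6, *Anapc16* (-0.45, adjusted p = 0.00509) and *Anapc5* (-0.32, adjusted p = 0.00918) were lower with the trend removed as well. The 3 condensin II genes had values from -0.21 to 0.20 and were not called.

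**Figure D5:**
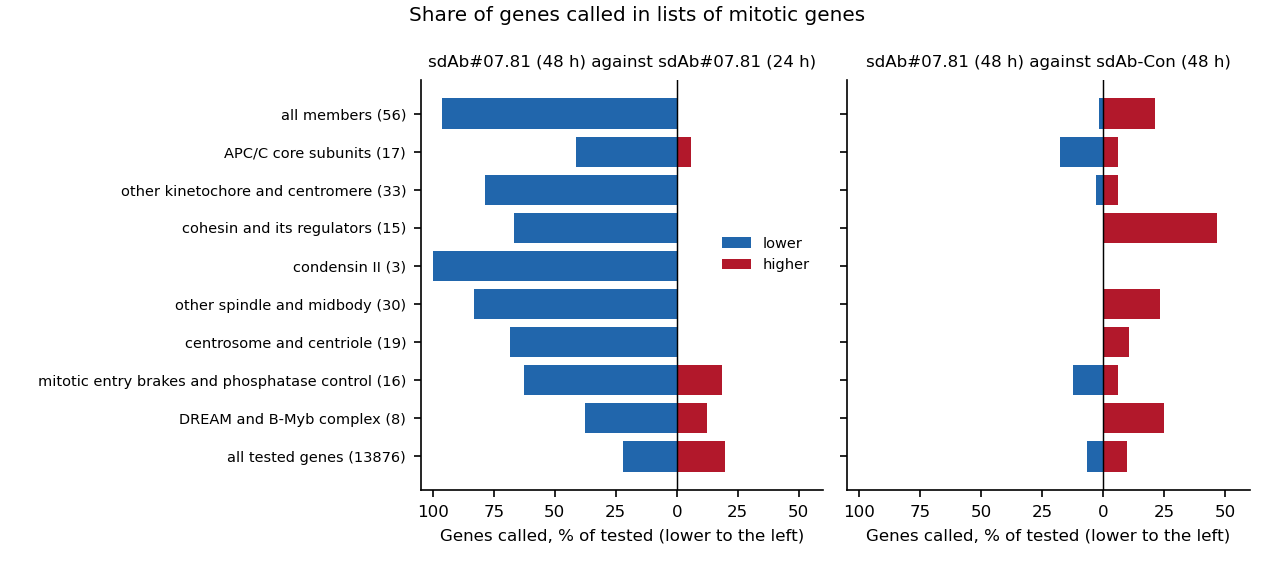
Percent of tested genes that were lower (left of 0) or higher (right of 0) in sdAb#07.81 (48 h), against 24 h and against sdAb-Con (48 h), for the 56 genes, 8 lists of other mitotic genes (number tested against sdAb-Con (48 h) in brackets) and all tested genes. Against 24 h the bars reach far to the lower side in most lists, and against sdAb-Con (48 h) the cohesin list has the longest bar on the higher side.

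Reads shared with other genes may affect some counts in either direction. Overlapping genes on the opposite strand with at least 10% of the mean of the gene itself were present at *Ncapg* (*Lcorl*, 92.5%), *Kif4* (*Pdzd11*, 72.9%), *Kif20a* (*Cdc23*, 69.6%), *Bub3* (*Fgfr2*, 47.1%), *Cdc20* (*Elovl1*, 34.2%), *Ccna2* (*Exosc9*, with a mean of 625), *Kif18a* (*Mettl15*, 19.2%) and *Cdca8* (*9930104L06Rik*, 14.7%). The percentages compare the whole mean of the neighbour with that of the gene, not reads in the overlap. Overlaps were taken between whole gene spans and were 11 bases at *Kif18a*, 53 at *Cdc20* and 11674 at *Bub3*. Whether strand was used in counting is not given in the sources used here, so the part of the neighbours in these counts is uncertain. *Ccnb1*, *Ccnb2*, *Cks1b* and *Kif4* have annotated copies (*Ccnb1-ps*, *Ccnb2-ps*, *Cks1brt*, *Kif4-ps*) that can share their reads.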

How the data were processed

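The authors sequenced paired reads from 8 libraries of 4T1 RNA, and the data are 2 tables that compare 4 libraries each. The submitters' processing notes name cutadapt 1.9.1, HISAT2 2.0.1, HTSeq 0.6.1 and the genome build GRCh38.p14, a human build, whereas the gene identifiers are those of mouse. Coordinates are therefore given as the tables list them, since only 1 of 56 genes has the same start in the GENCODE M21 annotation of GRCm38. For each gene the authors deposited a signal, the mean over 4 libraries of counts divided by size factors (mean normalized count), a linear fold change as a ratio, the log2 fold change with its standard error, the Wald statistic as a score, and the p-value with its Benjamini-Hochberg adjustment. Per the file headers, the columns carry the names that DESeq2 gives its results, but the tool is not given in the sources used here. These are the authors' own comparisons, used here because the tables hold no other measurement and no values per library, so a test of counts that had been planned could not be run.

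Tested genes were those whose mean normalized count reached 10 (13876 against sdAb-Con and 13968 against 24 h), and the deposited p-values of the Wald test were adjusted again over these, with a threshold of 0.05. Group means were computed from the mean and the fold change. The sdAb#07.81 (48 h) mean obtained from both tables differed by a constant, the scale between tables, with an SD of 0.00047 in log2 over 10112 genes, against at least 0.305 when the sides were exchanged, which settles the direction of the fold changes, and the 24 h means were put on the scale of the other table. Levels per kb and the trend used the longest annotated transcript of each gene, and which transcript the cells express was not tested. The trend with mean count, transcript length and GC content was fitted as a weighted polynomial of degree 3 over 13725 and 13809 genes and subtracted. The error of this fit is not part of the adjusted p-values after removal. At this depth the log2 fold changes had a median SE of 0.154 and 0.171 over tested genes. Calling and trend removal were tested on simulated data. The steps used Python 3.11.15 with pandas 2.3.3, numpy 2.4.6, matplotlib 3.10.9 and scipy 1.17.1.

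The 56 genes, the 8 other lists and the markers were chosen with earlier results of these data known. Every one of the 56 was to be accounted for, with values for at least the 2 largest and the smallest change of each role group in each comparison, and of the other lists up to 2 called genes per list and direction were named, or 3 where values were equal. One gene that this rule names is not reported here. The alternatives were no filter, a mean of at least 100, the adjusted p of the tables, a fold of at least 1.5 or 2, the trend removed, median centring and a promoter window from 150 bases before the start.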

Additional observations from a re-analysis of the deposited data

How the results depend on the processing

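Against 24 h, 54 genes of the set were lower without a filter, with a mean of at least 100, with the adjusted p of the table, with the trend removed and with median centring, and 18 were when a 2-fold change was asked for, which follows from the sizes of the changes. Against sdAb-Con (48 h), the 13 calls became 11 without a filter or with the adjusted p of the table, 14 with a mean of at least 100 and 13 with median centring. They became 3 at 1.5-fold and 0 at 2-fold, since the largest log2 fold change was 0.90, and 7 with the trend removed. With the trend removed, the sign turned for *Cks1b* (0.11), *Cks2* (0.01), *Aurkb* (0.07), *Espl1* (-0.05), *Cdca3* (0.02), *Spc25* (0.04), *Ncapg* (-0.05), *Top2a* (-0.06) and *Kif18a* (-0.11), and with median centring for *Ncapd2* (0.01) and *Racgap1* (0.02). None of these was called in either setting. With the shorter promoter window the CHR was found in 76.6% of the 47 genes and in 13.7% of all genes, and the CCAAT box in 74.5% and 31.9%. No paired analysis was possible because values per library are not in the tables, and leaving out single libraries was not run for the same reason.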
